A study of Mus musculus with 5 samples.

Results

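Keratins are the intermediate filament proteins of epithelial cells, and this account follows every keratin gene in bulk RNA sequencing of spheroids from mouse colon, which are balls of epithelial cells in culture. Members were all rows of the deposited tables whose gene symbol is Krt followed by a number and at most 1 letter. That gave 55 of 32793 gene rows, without the keratin-associated proteins (Krtap) and the Krtcap genes. Of these 55 genes, 28 are type I and 27 type II, and 1 of the type II genes, Krt74, is annotated as a transcribed pseudogene. The study compared 2 NDD libraries, from cells with dimerization-deficient alleles of both Notch1 and Notch2 (their titles begin with RA), with 3 wild-type (WT) libraries. Both groups had a mixed strain background that was mostly C57Bl6 with some FVB. The labels give no treatment, age or sex, and do not say whether the libraries of a group came from separate mice or cultures, so the p-values measure only the spread between these libraries.

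A keratin filament is built from pairs in which each type I chain joins a type II chain. Simple epithelia such as the gut lining rely on Krt8 (type II) with Krt18, Krt19 and Krt20 (type I), and Krt20 is known as a marker of mature surface cells of the intestine. Stratified epithelia such as skin and the lining of the mouth use other pairs, including Krt5 with Krt14 and Krt4 with Krt13, and hair keratins form the hard structures of hair and nail. Notch receptors release an intracellular domain that acts on genes through the DNA-binding protein RBPJ.

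Total counts were 19192389 to 23064000 per library, with the NDD totals inside the WT range, and 13501 genes entered the tests. A count of 0 allows up to 3 counts, or 0.130 to 0.156 CPM (counts scaled to a fixed library total), for counting error only. Spearman correlations of log2 CPM were 0.984 to 0.987 between WT libraries and 0.966 between the NDD libraries. NDD replicate 1 was closer to WT replicates 1, 2 and 3 (0.985, 0.982 and 0.973) than to NDD replicate 2. NDD replicate 2 and WT replicate 3 were least alike at 0.939. The labelled epithelium was plain in the data: each of 6 epithelial markers, among them Epcam and Cdh1, had at least 3398 counts in every library, and summed fibroblast, immune and endothelial markers did not exceed 0.932, 0.264 and 0.187 CPM. Notch1 was at 55.96 and 55.1 CPM in NDD and at 69.1, 61.7 and 56.3 CPM in WT (log2 fold change -0.17, SE 0.14, and edgeR adjusted p 0.584). The alleles change the protein, so the level of this transcript is not a check of the genotype. Notch2 had a log2 fold change of -0.43 (SE 0.26 and edgeR adjusted p 0.505).

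The keratin genes lie in a pair of clusters in the RefSeq annotation of GRCm38.p6, the assembly also called mm10, which the submitters' processing notes name. Of the 54 genes with a position (Krt85 was not matched), 27 lie on chromosome 11 between 99232761 and 100269951, all of them type I. The other 27 lie on chromosome 15 between 101348315 and 102032026, and these are the type II genes together with Krt18, the single type I gene outside the chromosome 11 cluster. RefSeq sequence upstream of the start was available for 36 keratin genes, 11 of them tested. The 250 bases before the start were searched on both strands for 3 strings. The core bound by RBPJ was searched as GTGGGAA. The TATA box, which places the start of transcription in some promoters, was searched as TATAAA. The GC box, which is bound by Sp1 and related factors, was searched as GGGCGG. In the windows shown, matches do not overlap each other. The windows of 3 genes are shown, with the matches in capitals: Krt20 and Krt7, a pair of simple keratins whose group values lay apart in opposite directions below, and Krt8, the abundant simple keratin with a match to the RBPJ core.
Krt20: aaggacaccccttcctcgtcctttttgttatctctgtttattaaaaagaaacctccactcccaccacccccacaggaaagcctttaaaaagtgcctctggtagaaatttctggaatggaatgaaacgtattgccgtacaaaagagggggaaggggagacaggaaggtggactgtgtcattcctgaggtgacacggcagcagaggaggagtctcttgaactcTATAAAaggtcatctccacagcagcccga
Krt7: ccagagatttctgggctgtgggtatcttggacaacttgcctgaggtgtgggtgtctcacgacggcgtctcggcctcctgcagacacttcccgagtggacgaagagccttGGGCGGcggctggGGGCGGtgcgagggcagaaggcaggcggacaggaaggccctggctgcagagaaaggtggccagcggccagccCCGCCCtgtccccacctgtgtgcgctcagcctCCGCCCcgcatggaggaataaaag
Krt8: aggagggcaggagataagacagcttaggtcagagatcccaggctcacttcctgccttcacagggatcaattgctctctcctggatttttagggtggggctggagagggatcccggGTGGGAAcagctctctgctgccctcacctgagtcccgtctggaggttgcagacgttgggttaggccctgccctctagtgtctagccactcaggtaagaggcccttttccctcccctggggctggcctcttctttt
The Krt20 window (chr11:99438154-99438403, minus strand) has TATAAA from 29 to 24 bases before the start. The Krt7 window (chr15:101412153-101412402, plus strand) has no TATAAA and has 4 matches to GGGCGG, 2 of them on the opposite strand. The Krt8 window (chr15:102004343-102004592, minus strand) has GTGGGAA from 135 to 129 bases before the start. Of 37 keratin windows, 17 (45.9%) held TATAAA, against 12.4% of all 32851 windows of this length, and 2 (5.41%) held GGGCGG, against 32.7%. GTGGGAA was in 2 keratin windows, those of Krt8 and Krt13 (5.41%, against 5.42% of all windows). These are matches of letters, and binding was not measured.

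Not all keratins were read. By the rule of at least 10 counts in at least 2 libraries, 18 of the 55 were detected, 21 had traces below that rule, and 16 had no count in any library. All 5 simple keratins were detected (Krt7, Krt8, Krt18, Krt19 and Krt20). Of 15 stratified keratins, 7 were detected, namely Krt4, Krt6a, Krt10, Krt13, Krt14, Krt15 and Krt16. Of 25 hair and hair follicle keratins, 3 were detected (Krt36, Krt84 and Krt87), and of 10 others, 3 (Krt23, Krt80 and Krt90). The same 18 genes passed edgeR's filter on low counts and were tested. Among the 37 that were not tested, the highest count was 27, for Krt27 in NDD replicate 1. Krt27, a keratin of the hair follicle's inner root sheath, had 0 counts in NDD replicate 2 and 8, 1 and 7 in WT. Krt5, the basal partner of Krt14 in stratified epithelia, had no count in NDD and 2, 15 and 9 counts in WT. Krt5 had counts in WT only, so it could pass a filter only through WT, and its values are a description. It was also fitted in 5 of the alternatives, and its p-values there are not read for the same reason.

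The pool was dominated by 4 simple keratins. In TPM (transcript abundance scaled for length and to a fixed total, so that genes can be compared), Krt19 was first in every library, at 4480 and 3739 in NDD and at 3975, 4775 and 4878 in WT. Krt8 followed at 3981.0 and 3183 TPM in NDD and at 3213, 3762 and 3586 TPM in WT. These levels place Krt19 between rank 16 and rank 19 of all gene rows and Krt8 between rank 21 and rank 29. Krt18 was at 778 to 964 TPM and Krt7 at 528 to 1258 TPM over the 5 libraries. Krt18 was above Krt7 in 4 libraries and below it in WT replicate 3. Krt19, Krt8, Krt18 and Krt7 together made up 97.2% to 98.7% of keratin TPM. The 15 stratified keratins made up 0.354% and 0.848% in NDD and 0.970%, 1.54% and 2.40% in WT, most of it Krt4. The separation of the class rested on Krt4: without it the stratified sum was 13.4 and 5.55 TPM in NDD and 13.1, 23.1 and 33.6 TPM in WT, with overlap.

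**Figure D1:**
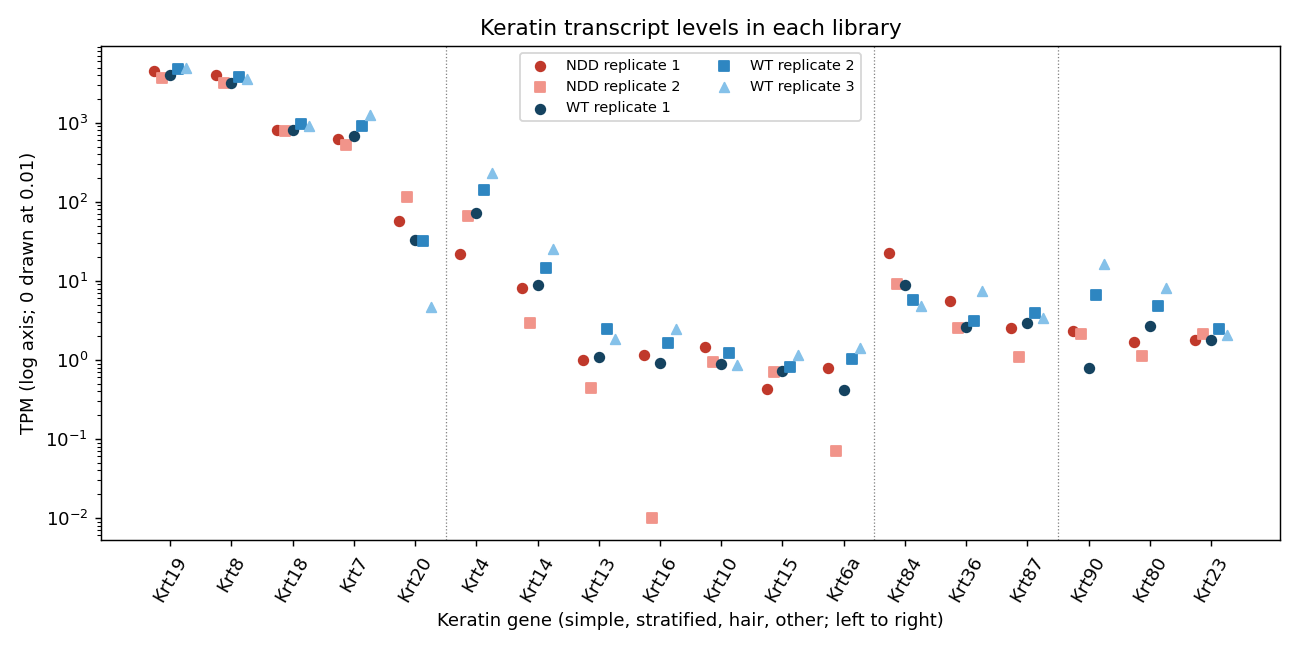
TPM of the 18 detected keratins in each library on a log axis, with dotted lines between the simple, stratified, hair and other classes (a value of 0 is drawn at 0.01). Krt19, Krt8, Krt18 and Krt7 are at 528 TPM or more in every library, while Krt20 runs from 4.64 to 114 TPM and Krt4 from 22.1 to 230 TPM.

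The summed level of the family did not separate the genotypes. All keratins together held 1.002% and 0.843% of TPM in NDD and 0.880%, 1.06% and 1.10% in WT. Type I sums were 5373 and 4641 TPM in NDD and 4826 to 5845 TPM in WT, and type II sums were 4648 and 3791 TPM in NDD and 3978 to 5109 TPM in WT. The ratio of type I to type II, which must pair in filaments, was 1.16 and 1.22 in NDD and 1.21, 1.20 and 1.14 in WT, so NDD lay inside or just above the WT range. No p is given for sums over the members.

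Gene by gene, edgeR's quasi-likelihood test called 0 of the 18 keratins at an adjusted p under 0.05. The lowest keratin value was 0.351, and limma-voom also called 0. Over all genes tested, 12 of 13501 (0.0889%) were called, 0.0667% higher and 0.0222% lower in NDD. These counts describe the keratins that passed the filter on low counts, not all 55. An unadjusted p under 0.05 was found for 6 of the 18 keratins, 2 higher in NDD (Krt20 and Krt84) and 4 lower (Krt4, Krt7, Krt14 and Krt80). The share over all genes was 11.2%, with 6.49% higher and 4.68% lower. NDD and WT lay apart in CPM, with no overlap, for 7 of the 18, 2 above and 5 below WT, which is 38.9% against 32.0% of all genes. That count of 7 is near the background share. In TPM the count was 9 of 18, with Krt13 and Krt15 also apart, 2 above and 7 below WT. The share over all genes in TPM was 30.0%, with 15.7% above and 14.3% below. Of the 18, 5 had a log2 fold change above 0 and 13 below, with a median of -0.67, while the median over all genes was -0.0047. Krt6a, Krt13, Krt15 and Krt16, all below 0, reached 10 counts in 1 NDD library only and in every WT library. They could pass the filter only with the help of WT. The balance of signs, the median and the TPM count are therefore a description. The count of 6 fell when WT replicate 2 or WT replicate 3 was left out, and leaving out an NDD library changed its members. Without WT replicate 2 only Krt80 of the 6 remained, and without WT replicate 3 Krt20 and Krt80. Both fits without an NDD library rest on 1 NDD library and added Krt5, which could pass a filter only through WT. The fit without NDD replicate 2 also added Krt27, which was highest in the remaining NDD library. The counts of these fits are therefore not read. Without WT replicate 1, 5 of the 6 remained (all but Krt20) beside Krt90. DESeq2 called 1 keratin, Krt80 (adjusted p 0.0152), among 365 calls in 14345 genes (2.54%).

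**Figure D2:**
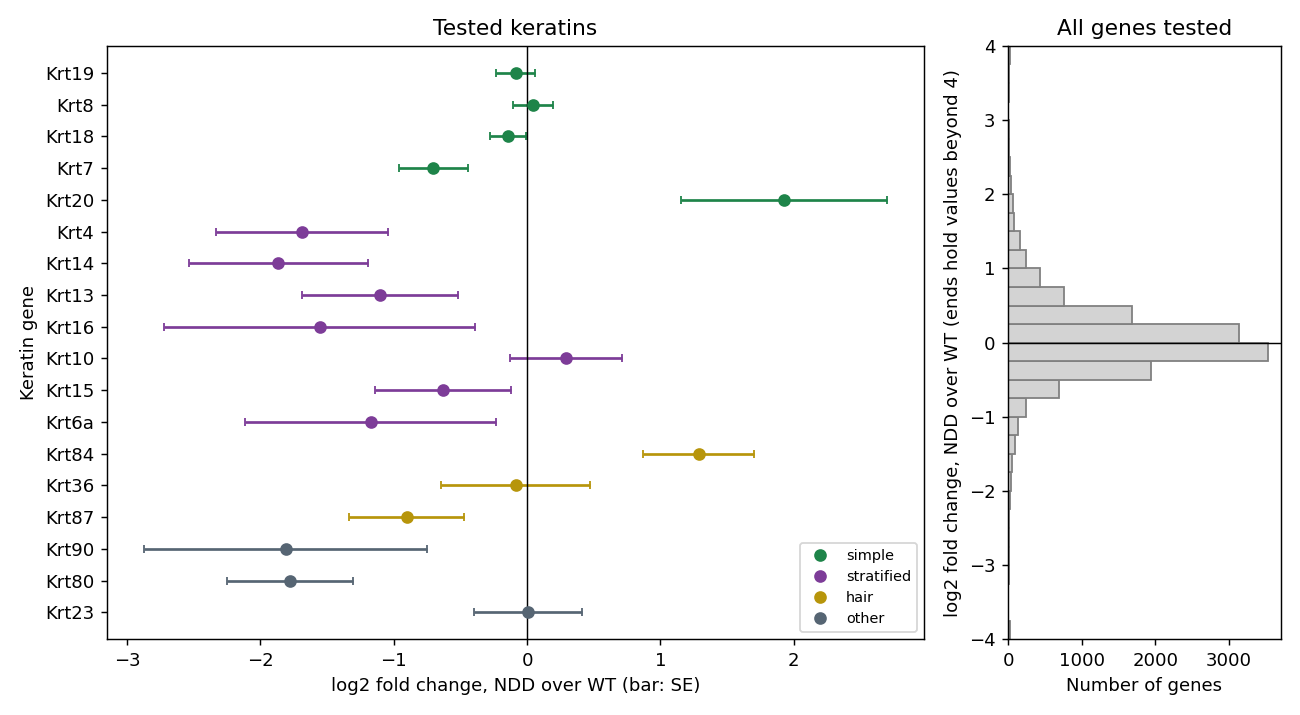
Log2 fold change of NDD over WT for the 18 tested keratins, coloured by class (left, bars are standard errors), beside the distribution of the same value over all 13501 genes tested (right, y axis). Krt8, Krt18 and Krt19 lie within 0.15 of 0, Krt20 and Krt84 lie above 1, and 6 of the 7 stratified keratins lie below 0. Among the latter, Krt6a, Krt13, Krt15 and Krt16 could pass the filter on low counts only with the help of WT.

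Krt8, Krt18 and Krt19, the most abundant partners of the simple epithelial network, had fold changes near 0. Krt8 was at 3875 and 3340.0 CPM in NDD and at 3178, 3821 and 3497 CPM in WT, so the groups overlapped. Its log2 fold change was 0.04 (SE 0.15, 95% interval -0.32 to 0.41, edgeR adjusted p 0.896). Krt18, its classical type I partner, was at 593 and 610.3 CPM in NDD and at 591, 731 and 669.7 CPM in WT, with both NDD values inside the WT range. Its log2 fold change was -0.14 (SE 0.14, 95% interval -0.48 to 0.19, edgeR adjusted p 0.636). Krt19, the smallest type I keratin and one known in crypt cells, was at 3066 and 2832 CPM in NDD and at 2762, 3357 and 3271 CPM in WT. Its values were again inside the WT range, with a log2 fold change of -0.09 (SE 0.15, 95% interval -0.44 to 0.27, edgeR adjusted p 0.788). Each interval holds 0 and values on both sides of it. A share of 32.3% of the 31-base words of Krt8 is also found in other annotated genes. Nearly all of these are in the pseudogene Krt8-ps (32.2%), which has no row under that name in the deposited data. Krt18 shares 11.4%.

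Krt20 and Krt7 were the simple keratins with separated groups. Krt20 was at 60.02 and 130.5 CPM in NDD and at 35.05, 35.3 and 4.93 CPM in WT. Both NDD libraries were above all WT libraries, and WT replicate 3 was far below the other WT libraries. The mean was 95.3 ± 49.8 CPM (SD, n = 2) against 25.1 ± 17.5 CPM (SD, n = 3). The log2 fold change came to 1.93 (SE 0.77, edgeR unadjusted p 0.0461, adjusted p 0.440). It was 1.28 without NDD replicate 2, where the unadjusted p was 0.370, and 1.44 without WT replicate 3. The summed TPM of 15 colonocyte genes, markers of the mature absorptive cells in which Krt20 is known, did not overlap either. It was 11232 and 10218 in NDD and 8156, 7566 and 6767 in WT. The genes of that list with the highest CPM, Car1, Car2 and Ceacam1, each overlapped between groups (log2 fold changes 0.46, -0.10 and 0.06). Of the 15, 14 had a log2 fold change above 0, and the list was chosen with earlier results of these data known. In bulk RNA, more cells of a type and more RNA per cell cannot be told apart, and the part of the colonocyte genes' shift in the Krt20 result was not tested.

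Krt7, a type II keratin of ducts and other simple linings, went the other way. It was at 517 and 478 CPM in NDD and at 578, 793 and 1059 CPM in WT. Both NDD values were below the lowest WT value, which was that of WT replicate 1. The mean was 498 ± 27.3 CPM (SD, n = 2) against 810.0 ± 241 CPM (SD, n = 3). The log2 fold change came to -0.70 (SE 0.26, edgeR unadjusted p 0.0340, adjusted p 0.437). The ratio of Krt8 to Krt7 in TPM was 6.47 and 6.03 in NDD and 4.74, 4.16 and 2.85 in WT. Without WT replicate 3 the log2 fold change of Krt7 was -0.46.

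Among the stratified keratins, Krt4 was the most abundant, and 6 of the 7 tested had a log2 fold change below 0, Krt10 being the exception. Krt6a, Krt13, Krt15 and Krt16 reached 10 counts in 1 NDD library only, but in every WT library. They could pass the filter on low counts only with the help of WT, so the count of 6 is a description. Krt4, the type II keratin of moist stratified linings such as the oesophagus, was at 25.9 and 83.4 CPM in NDD and at 86.3, 171 and 269.96 CPM in WT. The groups were apart by a narrow margin, since NDD replicate 2 was close to WT replicate 1. The log2 fold change was -1.69 (SE 0.64, edgeR unadjusted p 0.0386, adjusted p 0.437). Leaving out NDD replicate 2 gave -2.75 and leaving out NDD replicate 1 gave -1.08. Krt13, its usual type I partner, was far lower, at 0.787 and 0.421 CPM in NDD and at 0.725, 1.85 and 1.33 CPM in WT, with groups that overlapped in CPM but not in TPM. Its log2 fold change was -1.10 (SE 0.59 and edgeR adjusted p 0.481).

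Krt14, the type I keratin of basal cells of stratified epithelia, was at 5.11 and 1.83 CPM in NDD and at 5.64, 11.95 and 20.4 CPM in WT. NDD replicate 1 lay just below WT replicate 1, and WT replicate 3 was highest. The log2 fold change was -1.86 (SE 0.67, edgeR unadjusted p 0.0308, adjusted p 0.437), and leaving out NDD replicate 1 gave -2.80 and leaving out NDD replicate 2 gave -1.30. Krt14 shares 28.2% of its 31-base words with other annotated genes, 17.6% with Krt16, so its value is uncertain. Krt16 and Krt6a, a pair known to be induced in stressed or wounded skin, had at most 47 and 41 counts in any library. Krt16 was at 0.918 and 0 CPM in NDD and at 0.725, 1.36 and 2.02 CPM in WT (log2 fold change -1.55, SE 1.17, and edgeR adjusted p 0.560). Krt6a was at 0.962 and 0.0937 CPM in NDD and at 0.518, 1.32 and 1.76 CPM in WT (log2 fold change -1.17, SE 0.94, and edgeR adjusted p 0.578). Leaving out NDD replicate 1, where Krt16 then had 0 counts in the remaining NDD library, gave fitted values of -7.91 for Krt16 and -3.61 for Krt6a, and leaving out NDD replicate 2 gave -0.57 and -0.31. The value of -7.91 depends on the prior count and is no bound. Both genes overlapped between groups, and 51.9% and 51.3% of their words are found in other genes. Krt15 was at 0.394 to 1.07 CPM over the 5 libraries (log2 fold change -0.63, SE 0.51, and edgeR adjusted p 0.580). Krt10, the keratin of upper skin layers, was at 0.987 to 1.66 CPM (log2 fold change 0.29, SE 0.42, and edgeR adjusted p 0.747).

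Markers of a squamous or anal epithelium were read beside these genes. Trp63, the master regulator of basal squamous cells, had at most 5 counts in any library, and Sprr3 and Dsg1a had 0 counts in all 5. Of the 10 markers on that list, 5 reached 10 counts in any library, namely Krt5, Krt14, Lor, Dsg3 and Col17a1. Dsg3, a desmosomal cadherin of squamous cells, had 86 and 35 counts in NDD and 32, 22 and 43 in WT, highest in NDD replicate 1. Col17a1, a hemidesmosomal collagen, had 118 and 48 counts in NDD and 59, 140 and 227 in WT, with overlap. Leaving out the keratins on the list, their sum was 57.0 and 33.7 CPM in NDD and 62.5, 93.6 and 79.8 CPM in WT. Most of that was Lor, which encodes the cornified envelope protein loricrin, with 1097 and 628 counts in NDD and 1114, 1957 and 1578 in WT. In CPM both NDD values of Lor were below WT, as for Krt4 and Krt14 (log2 fold change -0.86, SE 0.27, edgeR unadjusted p 0.0178, adjusted p 0.412). The part of such cells in the values of the stratified keratins was not tested.

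The order of Krt20 and Krt4 differed between genotypes, a comparison chosen after the values were seen. Krt20 exceeded Krt4 in both NDD libraries (TPM ratio 2.57 and 1.73) and was below it in all 3 WT libraries (0.449, 0.228 and 0.0202). The spread among the WT libraries was itself wide, with WT replicate 3 lowest, so the order is given as a description with no test.

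**Figure D3:**
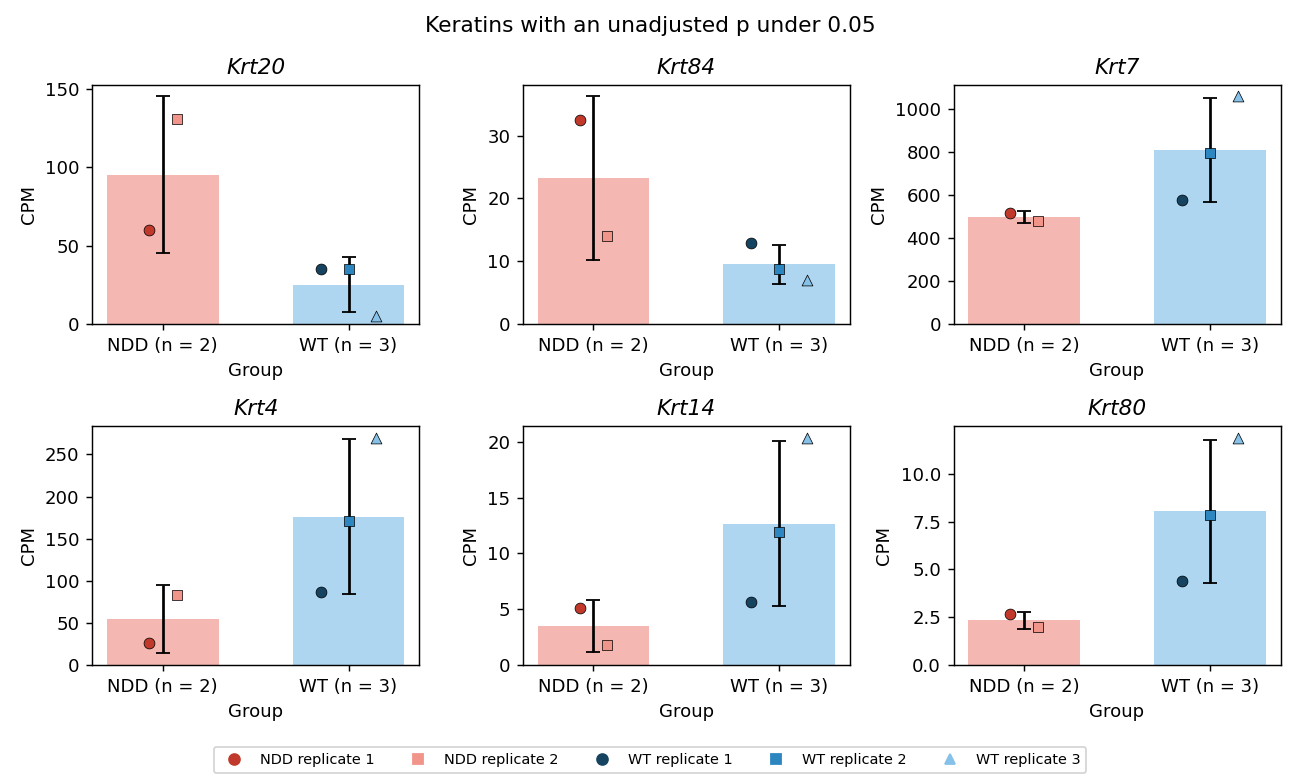
CPM of the 6 keratins with an unadjusted p under 0.05, with bars for the group mean, error bars for the SD (n = 2 NDD, n = 3 WT) and a point for each library. In all 6, which were picked by p, the groups do not overlap, as in 32.0% of all genes. WT replicate 1 is the WT library nearest to NDD in Krt84, Krt7, Krt4, Krt14 and Krt80.

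In the hair and hair follicle class, Krt84, a type II keratin described in nail and tongue, had both NDD values above WT. It was at 32.4 and 13.95 CPM in NDD and at 12.9, 8.70 and 6.95 CPM in WT. NDD replicate 1 stood out, and NDD replicate 2 was close to WT replicate 1. The log2 fold change was 1.29 (SE 0.42, edgeR unadjusted p 0.0206, adjusted p 0.417), and without NDD replicate 1 it was 0.55 (unadjusted p 0.177). Exons of Krt7, Krt8, Krt80, Krt10, Krt6a and Krt90 overlap annotated exons of a gene on the other strand, and without a stated strand setting such reads cannot be told apart. Krt84 shares 0.345% of its 31-base words with other genes and overlaps no annotated exon of another gene. Krt87 was at 2.49 and 1.17 CPM in NDD and at 2.95, 4.04 and 3.30 CPM in WT, apart between the groups (log2 fold change -0.90, SE 0.43, and edgeR adjusted p 0.468). Leaving out NDD replicate 1 gave -1.56 for Krt87 and leaving out NDD replicate 2 gave -0.45. A share of 52.4% of its words are found in other genes, so its value is uncertain. Krt36 was at 4.98 and 2.43 CPM in NDD and at 2.33, 2.90 and 6.56 CPM in WT, with overlap (log2 fold change -0.09, SE 0.56, and edgeR adjusted p 0.950). Its sign was not stable, at 0.35 without NDD replicate 2 and 0.50 without WT replicate 3. Of 6 markers of skin and hair follicle, Hoxc13, a regulator of hair keratin genes, and Krt71 and Msx2 had 0 counts in all 5 libraries, and Krt25 had at most 1. Lhx2, a factor of hair follicle stem cells, had 25 and 16 counts in NDD and 4, 2 and 5 in WT, which puts NDD above WT, as for Krt84. With so few counts in WT, Lhx2 could pass the filter on low counts only through NDD. Its log2 fold change of 2.41 is therefore a description, and its p-value is not read. Tchh, which encodes trichohyalin, had 32 and 28 counts in NDD and 33, 40 and 68 in WT. The part of such cells in the Krt84 values was not tested.

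The remaining detected keratins were Krt80, Krt90 and Krt23. Krt80, a type II keratin found in many epithelia, was at 2.67 and 2.01 CPM in NDD and at 4.40, 7.82 and 11.9 CPM in WT. The NDD libraries were alike and below all WT libraries. The mean was 2.34 ± 0.462 CPM (SD, n = 2) against 8.03 ± 3.74 CPM (SD, n = 3). The log2 fold change came to -1.78 (SE 0.47, edgeR unadjusted p 0.00903, adjusted p 0.351). Its unadjusted p was under 0.05 in each of the 15 alternative fits, from 0.000238 with DESeq2 to 0.0445 without NDD replicate 2. It had no adjusted p under 0.05 outside DESeq2. Krt90 was at 3.28 and 3.23 CPM in NDD and at 1.14, 9.80 and 23.2 CPM in WT. The NDD values were almost equal and lay inside the wide WT range (log2 fold change -1.81, SE 1.06, and edgeR adjusted p 0.494). Leaving out WT replicate 3 gave -0.75 and leaving out WT replicate 1 gave -2.34, while limma-voom gave -1.08 and limma on log2(TPM + 1) gave -0.95 with all libraries. Krt23, a type I keratin, was even, at 1.36 and 1.87 CPM in NDD and at 1.19, 1.93 and 1.67 CPM in WT (log2 fold change 0.01, SE 0.41, and edgeR adjusted p 0.992). Krt23 was negative on the log2(TPM + 1) scale, at -0.065.

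The libraries differed in how often they held the extreme keratin value. WT replicate 3 had the highest CPM for 9 of the 18 tested keratins, where it was highest for 26.4% of all genes. WT replicate 1 was highest for 0 and lowest for 6, where it was highest for 14.4% and lowest for 12.9% of all genes. Of the 18, 17 were higher in WT replicate 2 than in WT replicate 1. The share of all genes for that comparison was not computed, so it cannot be called particular to keratins. NDD replicate 2 was lowest for 7, where it was lowest for 34.8% of all genes, and highest for 1, where it was highest for 33.9%. Summed TPM of 15 proliferation genes was 651 in NDD replicate 2 and 1634 to 1847 in the other 4 libraries. Msln, known in mesothelium and in some epithelia, had 6848 counts in WT replicate 3 and at most 3001 elsewhere, while the other 3 mesothelial markers had at most 4 counts in any library. The part of these differences in the keratin values was not tested.

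Position along the chromosomes was compared with the fold changes. On chromosome 15 Krt80, Krt7 and Krt87 follow each other among the keratins, with 42240 and 3683 bases between them, and all 3 had log2 fold changes below 0. Krt84 (101525026 to 101532820, minus strand) had a value above 0. It has untested keratins directly beside it, and the nearest tested ones, Krt87 and Krt90 (101552356 to 101562950, minus strand), were both below 0. At the far end, Krt8 (101996711 to 102004342, minus strand) and Krt18 (102028216 to 102032026, plus strand) are 23873 bases apart, face away from each other and were both near 0. On chromosome 11 Krt20 (99428385 to 99438153, minus strand) lies between Krt12, which had at most 8 counts, and Krt23 (log2 fold change 0.0096) in keratin order. Along chromosome 11, the first 3 tested keratins (Krt10, Krt20 and Krt23) had log2 fold changes above 0, and the next 6 (Krt36, Krt13, Krt15, Krt19, Krt14 and Krt16) below 0. The signs of Krt23 and Krt36 changed under alternative fits. This order is a description and was not tested.

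**Figure D4:**
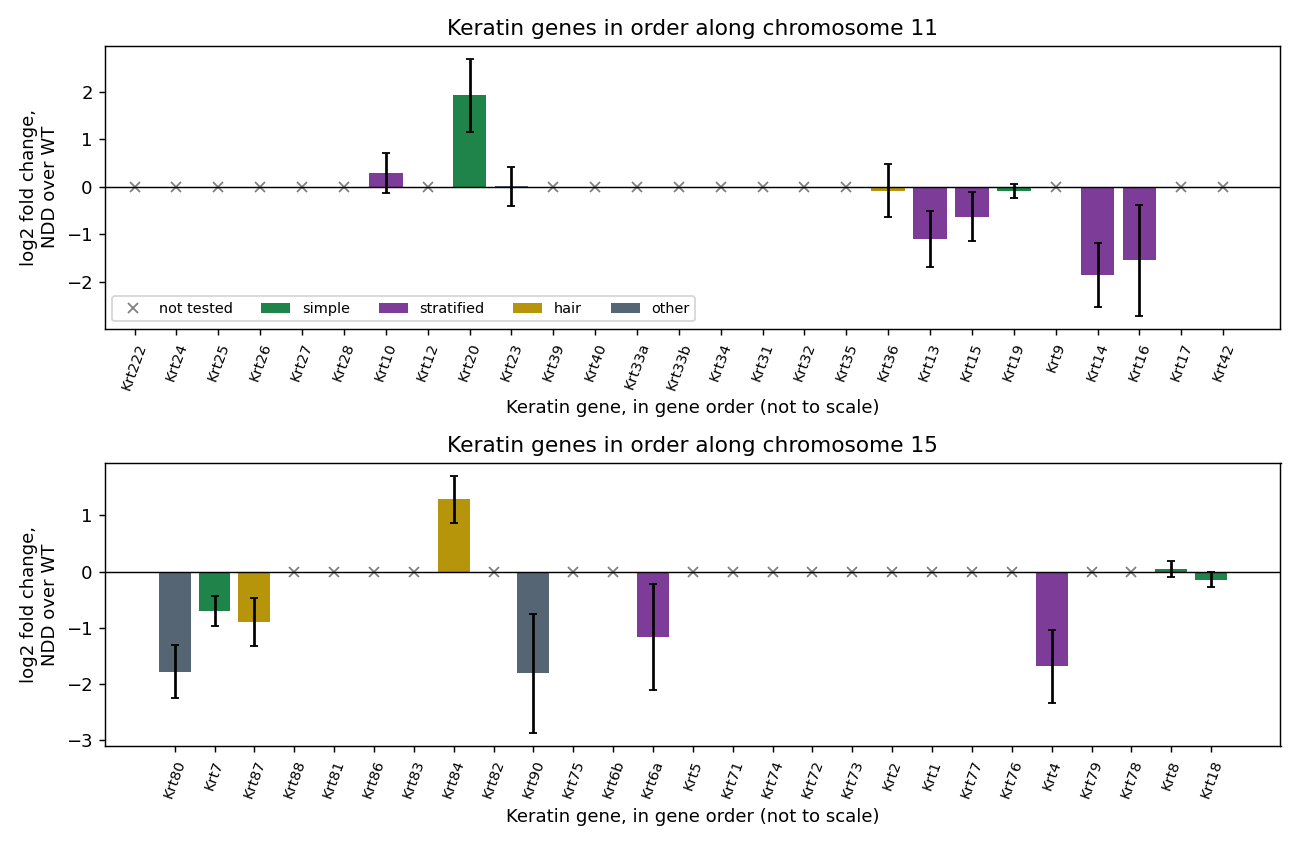
Log2 fold change of NDD over WT (bars, with standard errors) for keratin genes in their order along chromosome 11 and chromosome 15, with crosses for genes that were not tested. Krt84 is above 0 while the nearest tested keratins on either side, Krt87 and Krt90, are below 0, and Krt20 is above 0 beside Krt23 near 0.

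Beside the keratins, the genes of their partner proteins were read. The list of 32 partners covers desmosome and hemidesmosome linkers, plakins and other filament proteins. It also holds genes outside these groups, among them Krtcap2, Krtcap3, Ywhaz, Sfn, Csnk1a1, Tgm2 and Hspb1. All 32 were tested and 0 were called by edgeR, and 3 (9.38%) had an unadjusted p under 0.05, against 11.2% of all genes. DESeq2 called 1 of the 32, Pkp1, where it called 2.54% of all genes. In the edgeR fit without NDD replicate 1, 11 of the 32 (34.4%, against 30.1% of all genes) had an unadjusted p under 0.05 and 1, Lmnb1, was called. Their median log2 fold change was -0.06, with 13 above and 19 below 0. The 3 with the lowest p were Ppl, Pkp1 and Pof1b. Ppl encodes periplakin, which links filaments to desmosomes, and was at 43.3 and 40.04 CPM in NDD and at 55.5, 57.9 and 68.3 CPM in WT (log2 fold change -0.54, SE 0.15, and edgeR adjusted p 0.362). Pkp1, a desmosomal plakophilin, was at 33.7 and 69.8 CPM in NDD and at 93.3, 114 and 119.7 CPM in WT (log2 fold change -1.07, SE 0.32, and edgeR adjusted p 0.394). Pof1b, an actin-binding epithelial protein, was at 83.1 and 105.5 CPM in NDD and at 73.9, 59.2 and 45.3 CPM in WT (log2 fold change 0.67, SE 0.23, and edgeR adjusted p 0.437). The groups did not overlap for these 3, which were picked by their low p, as they did not for 32.0% of all genes.

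Of 20 epithelial transcription factors, 18 were tested and 0 were called, with 2 at an unadjusted p under 0.05 (11.1%, against 11.2% of all genes), 0 called by DESeq2 and a median log2 fold change of 0.07. Without NDD replicate 1, edgeR called 3 of the 18 (Fosl1, Foxa1 and Foxa2), and 9 (50%, against 30.1% of all genes) had an unadjusted p under 0.05. Foxa1 was at 119 and 95.9 CPM in NDD and at 153, 169 and 149 CPM in WT (log2 fold change -0.54, SE 0.15, and edgeR adjusted p 0.351). Foxa2 was at 36.2 and 48.1 CPM in NDD and at 31.2, 27.2 and 23.5 CPM in WT (log2 fold change 0.63, SE 0.19, and edgeR adjusted p 0.403). Both are pioneer factors of endodermal epithelia. They were picked by their low p, and their groups did not overlap, as was so for 32.0% of all genes. Klf4, known in differentiated surface cells, was at 256 and 664 CPM in NDD and at 215, 299 and 144 CPM in WT, with overlap (log2 fold change 1.07, SE 0.45, and edgeR adjusted p 0.456). Of the 15 colonocyte genes, 1 was called, Phgr1, a gene of the surface epithelium. It was at 278 and 323 CPM in NDD and at 121, 124 and 116 CPM in WT (log2 fold change 1.32, SE 0.12, and edgeR adjusted p 0.0373), and the call was lost in 6 of the 15 alternative fits: each fit without a WT library, the fit with a replicate block, the fit with 10 counts required in every library, and limma on log2(TPM + 1) with no filter. The colonocyte list had 9 genes at an unadjusted p under 0.05, all higher in NDD, where 6.49% of all genes were, with 14 of 15 above 0 and a median log2 fold change of 1.53. This list was chosen with earlier results of these data known, so its counts are a description and not a test against the share over all genes. Of these 15 genes, 3 had an unadjusted p under 0.05 without NDD replicate 1 (20.0%, against 30.1% of all genes in that fit) and 4 without NDD replicate 2 (26.7%, against 7.34%). DESeq2 called 5 of the 15, all higher in NDD (Ceacam20, Guca2a, Muc3, Phgr1 and Slc37a2). The 15 proliferation genes had 0 calls in edgeR and in DESeq2 and 0 at an unadjusted p under 0.05 in either, with a median of -0.54. In the edgeR fit without NDD replicate 1 all 15 were called lower, and that fit called 1207 of 14007 genes in all. Without NDD replicate 2 none of the 15 was among its 12 calls in 13856 genes. The lowest p on that list belonged to Bub1, Top2a and Birc5, with log2 fold changes of -0.59, -0.50 and -0.70 (edgeR adjusted p 0.481, 0.482 and 0.483), and NDD replicate 2 was the lowest library for each of them.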

How the data were processed

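The labels name a column kit for RNA and a kit for stranded mRNA libraries. Bowtie2, RSEM and mm10 are named in the submitters' processing notes, and their roles, versions, the annotation and the strand setting are not given in the sources used here. The authors deposited estimated counts per gene, as whole numbers, and TPM per gene.

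Counts of all 5 libraries were tested with edgeR 4.0.16 (R 4.3.3; TMM factors, filterByExpr, robust quasi-likelihood test, no covariate), a script tested on simulated data. P-values were adjusted over 13501 genes by Benjamini and Hochberg's method, with calls at 0.05. Fold changes use a prior count of 0.125, and SE is the log2 fold change over the square root of F. CPM uses TMM-scaled totals. Shared sequence is the share of a gene's 31-base words (GENCODE M21) found in other genes. Alternatives were RLE and upper-quartile factors, other filters, DESeq2 1.42.0, limma-voom and limma on log2 TPM (3.58.1), a replicate block and leaving out each library. Without an NDD library, the lone NDD library was assumed to vary like WT. Members, classes and lists were chosen with earlier results of these data known. Every tested keratin is named and, per list, called genes or else the 3 with the lowest p.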

Additional observations from a re-analysis of the deposited data

How the results depend on the processing

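Of 174 values of the 18 tested keratins under alternatives other than leaving out a library, 169 kept their direction and stayed uncalled, 1 became called (Krt80 with DESeq2) and 4 changed sign. These were Krt36, at 0.43 with the replicate block, and Krt23, at -0.065, -0.091 and -0.065 in the 3 limma fits on TPM. Fold changes of low genes shrank in limma on log2(TPM + 1), to -0.46 for Krt6a, 0.14 for Krt10, -0.69 for Krt13 and -0.82 for Krt16, which limma-voom put at -3.10, and without a filter Krt15 was at -0.27 in the former. Leaving out 1 library changed the sign of Krt8 (-0.074 to 0.16), Krt23 (-0.23 to 0.22) and Krt36 (-0.70 to 0.50). The number of called keratins, 0, was 1 with DESeq2 and 0 with a WT library left out. Without NDD replicate 1, Krt16 had 0 counts in the lone NDD library, so its call there is not read. The 6 keratins with an unadjusted p under 0.05 became 4 to 7 in fits with all libraries (7 in limma on log2(TPM + 1)) and 1 to 6 with a WT library left out. Krt5, which could pass a filter only through WT, is counted with DESeq2 and in the fits with no filter. The 12 called genes overall became 58 without a filter, 4 with 10 counts required in every library, 365 with DESeq2, 24 with limma-voom, 33 with the replicate block, and 0 to 1207 with a library left out. The 1 called gene on the lists of partners, regulators, colonocyte and proliferation genes became 6 with DESeq2, 2 without a filter, 0 with 10 counts required in every library, 0 in limma on log2(TPM + 1) with no filter, and 0 to 21 with a library left out. The log2 ratio of group means of summed TPM ranged, over fits without a library, from -0.26 to -0.015 for all keratins, -0.24 to -0.031 for type I, -0.29 to 0.0028 for type II, -0.25 to 0.0029 for simple and -2.27 to -1.22 for stratified keratins. Causes were not tested. Replicate numbers are shared between groups, but the labels name no shared litter or day, and the deviations of same-numbered libraries correlated at 0.0129 and 0.301, so libraries were not paired. With the replicate block, 4 keratins had an unadjusted p under 0.05 and 0 were called, the log2 fold change of Krt90 was -0.19 (edgeR unadjusted p 0.835) and that of Krt7 -0.45 (unadjusted p 0.0703), that of Krt10 was 0.18, and Phgr1 lost its call while Slc37a2 gained one.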
